A study of Arabidopsis thaliana with 4 samples.

Results

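The genes described here encode 9 small helix-loop-helix (HLH) proteins of Arabidopsis thaliana that regulate cell elongation without binding DNA themselves. They are PRE1 to PRE6 (the PACLOBUTRAZOL RESISTANCE family), IBH1, PAR1 and PAR2. They were taken by locus code from the 27416 gene models of the deposited tables, with earlier results of these data known. All 9 had a value in every library. Of these, 8 passed the filter for testing (1 RPKM or more in 2 or more libraries, where RPKM is the read number scaled to transcript length and library depth), and PRE4 did not.

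Whole seedlings of the Col-0 ecotype carried a transgene under the 35S promoter, which drives expression in most tissues, in a cry1 mutant, which lacks functional cryptochrome 1, a blue-light receptor. In the CNT1 group (2 libraries) the transgene encoded CNT1, which is the amino-terminal, photolyase-like part of CRY1, with YFP and a signal for import into the nucleus attached. In the CNT1-G283E group (2 libraries) it encoded that fusion with the G283E substitution. All seeds were kept cold for 3 days on medium with 1% sucrose, given white light for 12 h and then kept under blue light (15 μmol/m2/s) for 4 days. The labels give a growth time of 4.5 days. The study asked which genes CNT1 regulates, and every difference below is CNT1 minus CNT1-G283E. The labels do not say whether a genotype is 1 transgenic line or whether replicates are separate cultures. The p-values therefore measure only the spread between these samples, and the substitution cannot be told apart from the insertion site or level of each transgene.

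The PRE proteins are short HLH proteins that promote elongation and whose genes respond to gibberellin, brassinosteroid or auxin. They act in a chain of mutual inhibition. IBH1 and PAR1 bind DNA-binding basic HLH (bHLH) factors such as HBI1 and PIF4 and keep them off DNA, and a PRE protein that binds IBH1 or PAR1 releases those factors. PAR1 and PAR2 were described as brakes on elongation in shade, IBH1 as a brake on the brassinosteroid response, and PRE6, also called KIDARI, as a partner of the light-signalling bHLH protein HFR1.

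The libraries held 28524534 and 28098772 reads in CNT1 and 27065174 and 24436863 reads in CNT1-G283E, as recovered from the RPKM values. The transgene cannot check the labels, because CRY1 reads come from both transgenes: CRY1 was at 823 and 825 RPKM in CNT1 and at 1152 and 1036 RPKM in CNT1-G283E. The limma test called 60.0% of 19201 genes at an adjusted p under 0.05 (31.1% with a higher and 29.0% with a lower level in CNT1), so a call by itself sets no gene apart. Markers of organs differed too. All 8 green cotyledon markers were higher in CNT1 (summed level 28101 to 28259 RPKM, against 7022 to 7107 RPKM in CNT1-G283E), with RBCS1A, a rubisco subunit gene, at 4912 and 4871 RPKM in CNT1 and 1581 and 1664 RPKM in CNT1-G283E, and LHCB1.3, an antenna gene, 5.78-fold higher. All 12 vascular markers were lower in CNT1 (summed level 264 to 267 RPKM, against 467 to 503 RPKM in CNT1-G283E; median log2 difference -0.89), with the xylem protease genes XCP2 and XCP1 1.77-fold and 1.85-fold lower. Of 12 root markers tested, 5 were lower and none higher. The summed level over the 15 listed was 2139 to 2146 RPKM, against 4319 to 4515 RPKM in CNT1-G283E. Most of that sum was BGLU23, at 1914 and 1905 RPKM in CNT1 and 3936 and 3686 RPKM in CNT1-G283E. The most abundant root markers, BGLU23 and the aquaporin gene TIP2;3, were 2.00-fold and 3.42-fold lower. The others that fell were the endodermal genes CASP1, ESB1 and MYB36, 2.64-fold, 2.58-fold and 1.68-fold lower. The other 7 root markers tested did not pass, among them the root-hair markers RHD6 and COBL9. Their log2 differences were -0.26 (RHD6), -0.04 (COBL9), 0.08 (EXPA7), -0.41 (EXPA18), -0.10 (PRP3), -0.11 (LRX1) and -0.38 (IRT1). NRT2.1 was listed at 0 in 3 libraries. In whole seedlings, fewer cells of a type and less RNA per cell cannot be told apart, and the part of organ make-up in the differences below was not tested.

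The PRE genes are a close family spread over 3 chromosomes. In the TAIR10.1 annotation PRE1 (AT5G39860) and PRE2 (AT5G15160) lie on chromosome 5, PRE3 (AT1G74500) and PRE6 (AT1G26945) on chromosome 1, and PRE4 (AT3G47710) and PRE5 (AT3G28857) on chromosome 3. Each is annotated with 2 exons and encodes 92 to 94 amino acid residues. PAR1 (AT2G42870) and IBH1 (AT2G43060) lie on chromosome 2 and PAR2 (AT3G58850) on chromosome 3, each with 1 exon, and encode 118, 156 and 118 residues in that order. None of the 9 overlaps another annotated gene. Over the 15 PRE pairs, identity of the translated coding sequences ranged from 61.5% (PRE2 and PRE4) to 87.0% (PRE1 and PRE5, 80 of 92 aligned residues). PAR1 and PAR2 shared 63.2% of aligned residues. The longest identical stretch of transcript between PRE genes was 22 nt and that between PAR1 and PAR2 26 nt. The sources used here give neither the read length nor the handling of reads that match several genes.

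The 250 bases before the annotated start are shown for the 4 members that differed at least 2-fold between the groups (TAIR10.1, each in the direction of its gene, 5′ to 3′). They are PRE1 at chr5:15957118-15957367 (plus strand), PRE2 at chr5:4922813-4923062 (minus strand), PRE5 at chr3:10856788-10857037 (minus strand) and IBH1 at chr2:17908757-17909006 (plus strand). Capitals mark a G-box, CACGTG, a letter sequence that PIF and other bHLH factors are known to bind.
PRE1: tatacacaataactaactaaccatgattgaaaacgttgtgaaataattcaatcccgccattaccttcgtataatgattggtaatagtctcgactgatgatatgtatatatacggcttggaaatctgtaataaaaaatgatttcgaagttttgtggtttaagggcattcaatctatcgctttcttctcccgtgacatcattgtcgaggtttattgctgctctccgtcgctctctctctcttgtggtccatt
PRE2: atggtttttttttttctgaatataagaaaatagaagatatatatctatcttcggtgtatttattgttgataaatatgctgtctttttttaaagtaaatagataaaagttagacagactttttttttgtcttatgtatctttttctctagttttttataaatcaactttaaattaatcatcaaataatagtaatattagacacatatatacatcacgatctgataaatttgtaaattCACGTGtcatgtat
PRE5: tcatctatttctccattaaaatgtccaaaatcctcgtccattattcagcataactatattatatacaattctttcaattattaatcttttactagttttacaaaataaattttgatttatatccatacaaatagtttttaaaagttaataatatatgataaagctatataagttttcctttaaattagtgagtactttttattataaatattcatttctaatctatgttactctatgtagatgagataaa
IBH1: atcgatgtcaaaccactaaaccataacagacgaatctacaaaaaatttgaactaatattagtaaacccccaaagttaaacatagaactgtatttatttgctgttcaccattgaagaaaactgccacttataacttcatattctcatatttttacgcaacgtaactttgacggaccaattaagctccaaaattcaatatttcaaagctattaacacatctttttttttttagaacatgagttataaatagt

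PRE2, the member that rose, was the one member of 9 with a G-box in this window, 14 to 9 bases before the start. Of 26709 protein-coding promoters of that length, 6.58% held one. The wider E-box CANNTG, which includes the G-box, was in 5 of 9 member windows (PRE2, PRE3, PRE4, PRE6 and PAR2) and in 55.3% of all. The windows of PRE1, PRE5, IBH1 and PAR1, which were lower in CNT1, held no E-box on either strand. Those of PRE6 and PAR2, also lower in CNT1, did hold it. A link between motif and direction was not tested. The PBE-box CATGTG, another form of the E-box, was in the windows of PRE4, PRE6 and PAR2 and in 11.2% of all. No member window held the brassinosteroid element CGTGTG (5.37% of all), its variant CGTGCG (1.58%) or the auxin element TGTCTC (10.9%). All were searched on both strands, and absence says only that these letters are not in this window. The transcript lengths behind the RPKM values are shorter than those of TAIR10.1 for every member but PRE4, so the start used here may not be that of the model counted.

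The PRE family did not move as a block. Among its 5 tested genes, PRE1, PRE5 and PRE6 were lower in CNT1, PRE2 was higher, and PRE3 did not pass. PRE4 was at the limit of detection. Among the growth repressors, IBH1, PAR1 and PAR2 were all lower. Over the 8 members tested, 6 fell and 1 rose, against 29.0% and 31.1% of all genes tested, and the median log2 difference was -0.27, against 0.02 over all genes tested. Group values did not overlap in 7 of the 8, as in 80.9% of all genes tested. PRE1, PRE5 and IBH1 were at least 2-fold lower on the log2(RPKM + 1) scale, as were 5.25% of all genes tested, and PRE2 was at least 2-fold higher, as were 3.93%.

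**Figure D1:**
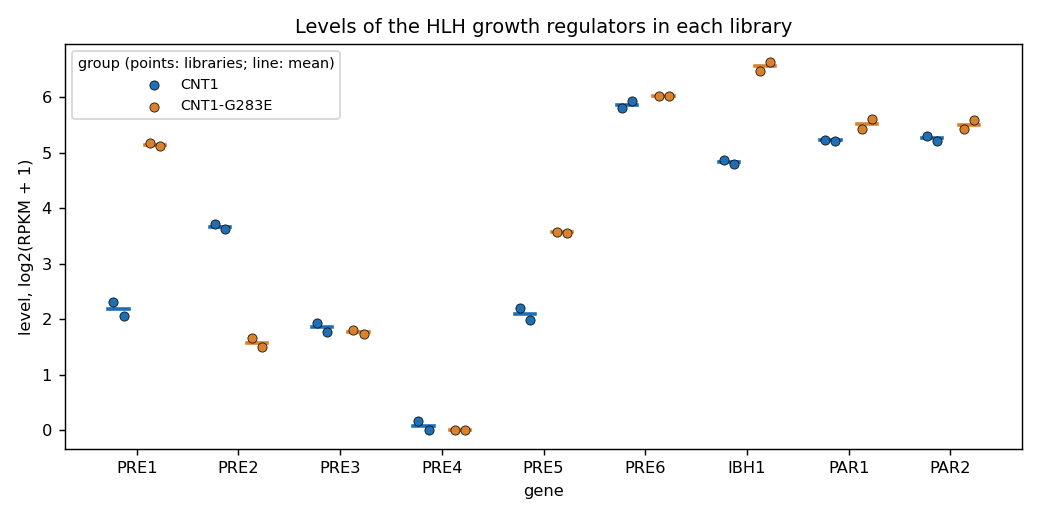
Level of each member on a log2(RPKM + 1) axis in the 2 CNT1 libraries (blue, left of each pair) and the 2 CNT1-G283E libraries (orange), with a line at each group mean. PRE1, PRE5 and IBH1 sit far lower in CNT1, PRE2 sits higher, and the values of PRE3 overlap.

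PRE1, the founding member of the family and a gene induced by gibberellin, was read at 3.94 and 3.19 RPKM in CNT1 and at 35.1 and 33.6 RPKM in CNT1-G283E. Both CNT1 libraries were far below both CNT1-G283E libraries. The mean was 9.64-fold lower in CNT1, with a log2 difference of -2.96 ± 0.089 (SE; limma adjusted p = 2.10e-07). These values came from 142 reads in CNT1 and 1246 in CNT1-G283E, which set the depth-corrected ratio at 0.104 with an exact 95% counting interval of 0.0865 to 0.123.

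PRE2, also named BANQUO 2, went the other way. It was read at 12.1 and 11.3 RPKM in CNT1 and at 2.15 and 1.84 RPKM in CNT1-G283E, so that the lower CNT1 library was above either CNT1-G283E library by a wide margin. The mean was 5.86-fold higher in CNT1. The log2 difference was 2.08 ± 0.095 (SE; limma adjusted p = 1.17e-06) on log2(RPKM + 1) and 2.53 on recovered reads, the first being reduced by the pseudocount at these low levels. There were 398 reads in CNT1 and 62 in CNT1-G283E, a depth-corrected ratio of 5.84 (exact 95% counting interval 4.46 to 7.76).

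PRE5, the closest relative of PRE1 by sequence, was read at 3.61 and 2.99 RPKM in CNT1 and at 10.8 RPKM in each CNT1-G283E library. It was 3.28-fold lower in CNT1, with a log2 difference of -1.46 ± 0.096 (SE; limma adjusted p = 7.49e-06). The most similar pair of proteins in the family, PRE1 and PRE5, shared a direction. In the next most similar pair, PRE3 and PRE6 (78.0% identical), PRE6 was lower and PRE3 did not pass. PRE2, 70.7% identical to PRE1 and 69.6% to PRE5, had the opposite direction to both. Its closest relative was PRE6 (73.9%), which was lower in CNT1.

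PRE6 was the most abundant PRE gene in every library. It was read at 54.7 and 59.7 RPKM in CNT1 and at 64.1 and 64.3 RPKM in CNT1-G283E. The CNT1 values were slightly lower and did not overlap the others. The log2 difference was -0.16 ± 0.051 (SE; limma adjusted p = 0.0240). Without CNT1 replicate 1 it was -0.10 with an adjusted p of 0.230, and without the intensity trend the adjusted p was 0.0830.

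PRE3, known as TARGET OF MONOPTEROS 7 and ATBS1 and studied in the embryonic root and in brassinosteroid signalling, was low throughout. It was read at 2.827 and 2.42 RPKM in CNT1 and at 2.52 and 2.35 RPKM in CNT1-G283E, and the groups overlapped. The log2 difference was 0.08 with a 95% interval of -0.18 to 0.34 (limma adjusted p = 0.572). The differences of PRE1, PRE2 and PRE5 lie outside that interval, and that of PRE6 lies within it. PRE4, also named BANQUO 3, had 1 read in CNT1 replicate 1, which is 0.126 RPKM, and 0 in the other libraries. A count of 0 allows up to 3 reads, which is 0.383 RPKM in CNT1 replicate 2 and 0.397 and 0.440 RPKM in CNT1-G283E replicates 1 and 2, so no difference was detectable at this depth. Intervals and limits from reads cover counting error only.

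**Figure D2:**
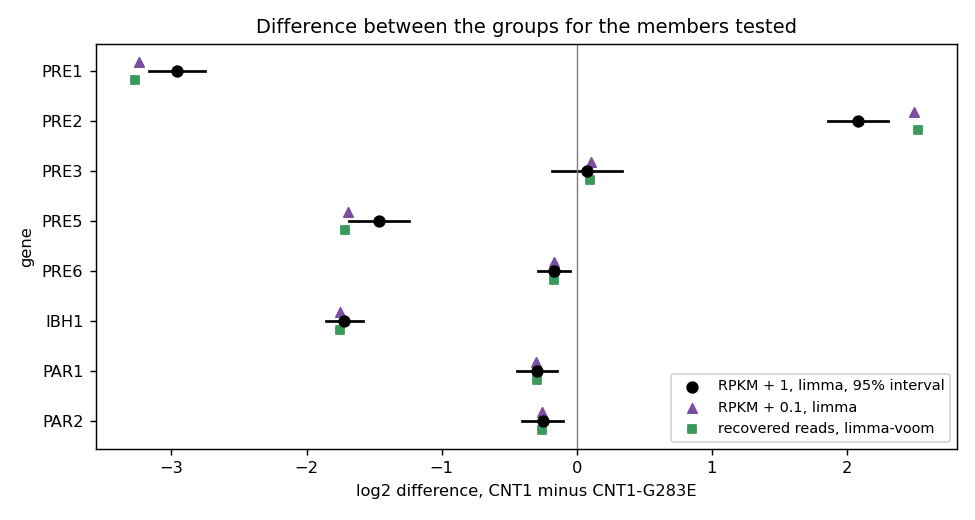
Log2 difference between the groups for the 8 members tested, as limma on log2(RPKM + 1) with its 95% interval (black), with a pseudocount of 0.1 (triangles) and as limma-voom on recovered reads (squares). The low genes PRE1, PRE2 and PRE5 spread most between the scales, and no member changes side of 0.

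Because RPKM is scaled by transcript length, the 6 PRE levels can be added. The sum was 77.3 and 79.6 RPKM in CNT1 and 115 and 113 RPKM in CNT1-G283E. Both CNT1 sums were below both others, and the CNT1 mean was 0.689 of the CNT1-G283E mean. PRE6 made up 72.9 ± 2.95% of the sum in CNT1, against 56.4 ± 0.749% in CNT1-G283E libraries (SD, n = 2 each). Without PRE6 the sum was 22.6 and 19.9 RPKM in CNT1 and 50.6 and 48.6 RPKM in CNT1-G283E.

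The make-up of the family changed more than its total. PRE2 contributed 14.9 ± 0.991% of the summed level in CNT1, against 1.75 ± 0.175% in CNT1-G283E libraries (SD, n = 2 each). PRE1 contributed 4.55 ± 0.768% in CNT1 and 30.2 ± 0.568% in CNT1-G283E. PRE5 contributed 4.21 ± 0.644% in CNT1 and 9.51 ± 0.0754% in CNT1-G283E. Within single libraries there were 3.06 and 3.55 units of PRE2 RPKM per unit of PRE1 in CNT1, and 0.0613 and 0.0546 in CNT1-G283E. The order of the 2 genes was therefore opposite in the 2 groups, in every library.

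**Figure D3:**
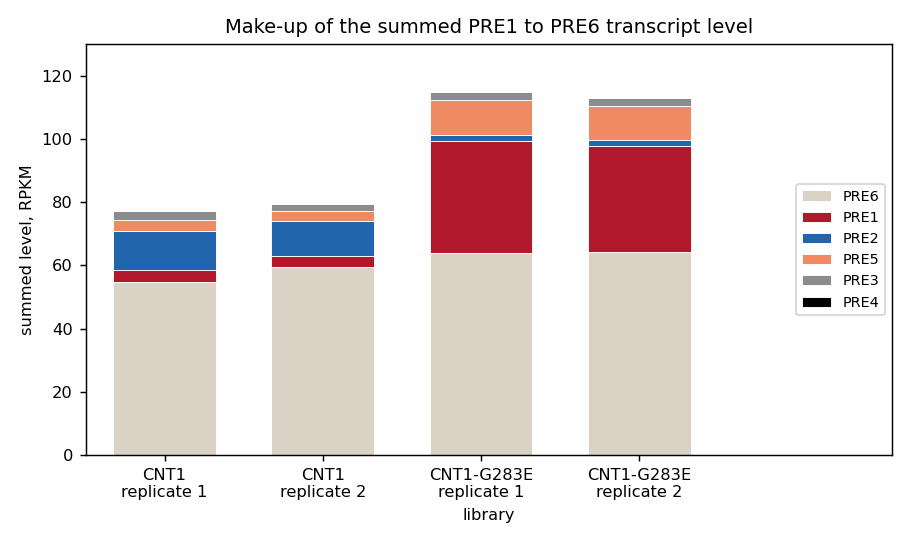
Summed RPKM of PRE1 to PRE6 in each library, stacked by gene, with the 2 CNT1 libraries on the left. PRE6 forms the base of every bar, PRE1 (dark red) is a thin band in CNT1 and a thick one in CNT1-G283E, and PRE2 (dark blue) is the reverse.

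Among the growth repressors, IBH1 differed most. It was read at 28.1 and 26.9 RPKM in CNT1 and at 88.2 and 97.7 RPKM in CNT1-G283E, the highest level of any member in that group. The CNT1 mean was 3.38-fold lower, and the log2 difference was -1.72 ± 0.058 (SE; limma adjusted p = 3.16e-07). PAR1 was read at 36.7 and 36.0 RPKM in CNT1 and at 41.9 and 47.6 RPKM in CNT1-G283E, a log2 difference of -0.29 ± 0.064 (SE; limma adjusted p = 0.00514). PAR2, its closest relative, followed it closely, at 38.5 and 36.0 RPKM in CNT1 and 41.9 and 47.2 RPKM in CNT1-G283E. Its log2 difference was -0.25 ± 0.066 (SE; limma adjusted p = 0.0119).

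Both PAR genes lay lower in CNT1 without overlap, and the ratio of PAR1 to PAR2 was 0.952 and 1.00 in CNT1 and 1.00 and 1.01 in CNT1-G283E. The size of the PAR2 difference rested on the libraries used. It was -0.20 (adjusted p = 0.0763) without CNT1 replicate 2, and -0.17 (adjusted p = 0.0408) without CNT1-G283E replicate 2, the library with the highest values of both genes.

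The repressors together summed to 103 and 98.9 RPKM in CNT1 and 172 and 193 RPKM in CNT1-G283E. The summed PRE level per unit of summed repressor level was 0.749 and 0.804 in CNT1 and 0.667 and 0.586 in CNT1-G283E. Both sums were lower in CNT1, the repressor sum at 0.555 of the CNT1-G283E mean and the PRE sum at 0.689. By gene, IBH1 was at 0.296 of its CNT1-G283E mean, and PAR1 and PAR2 were at 0.812 and 0.836. The repressor sum was therefore further down than the PRE sum through IBH1 only, as PAR1 and PAR2 fell less than the PRE sum. IBH1 and PRE1 taken alone gave another picture: there were 7.12 and 8.45 units of IBH1 per unit of PRE1 in CNT1 and 2.51 and 2.91 in CNT1-G283E. These are transcript levels, and no protein was measured.

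The order of levels differed between the groups. In CNT1 it ran PRE6, PAR2, PAR1, IBH1, PRE2, PRE1, PRE5, PRE3 and PRE4, and the neighbours PAR2 and PAR1, and PRE1 and PRE5, overlapped. In CNT1-G283E it ran IBH1, PRE6, PAR1, PAR2, PRE1, PRE5, PRE3, PRE2 and PRE4, and PAR1 and PAR2 overlapped. PRE2 stood in the fifth place in CNT1 and the eighth in CNT1-G283E.

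The relatives of IBH1 mostly shared its direction with smaller differences. Of 6 genes listed as encoding IBH1-like, growth-repressing HLH proteins, 4 fell and 1 rose (83.3% called, against 60.0% of all genes tested; median -0.34). AIF4, of the ATBS1-interacting factors named for their binding to PRE3, was read at 34.3 and 33.7 RPKM in CNT1 and at 59.7 and 59.7 RPKM in CNT1-G283E (log2 difference -0.79 ± 0.043, SE). IBL1, the closest relative of IBH1, was at -0.45 ± 0.060, AIF3 at -0.37 ± 0.043 and AIF1 at -0.32 ± 0.069. AIF2, at -0.08 ± 0.040, did not pass (limma adjusted p = 0.117). UPB1, known for controlling the balance of growth and differentiation in the root, was the exception, at 25.3 and 23.9 RPKM in CNT1 against 15.8 and 15.4 RPKM in CNT1-G283E (0.62 ± 0.057 on the log2 scale, SE).

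The DNA-binding partners on the IBH1 side were split. Of 11 genes, 5 fell and 3 rose (72.7% called, against 60.0% of all; median -0.16). HBI1, the growth-promoting factor that IBH1 binds, was read at 33.7 and 31.0 RPKM in CNT1 and at 44.4 and 48.8 RPKM in CNT1-G283E (log2 difference -0.51 ± 0.063, SE). BEE1, named for its induction by brassinosteroid, was 2.18-fold lower at 14.3 and 16.0 RPKM in CNT1 against 32.4 and 33.6 RPKM in CNT1-G283E. BEE2 was at -0.61 ± 0.052 and BEE3 at -0.33 ± 0.051. Of the other listed genes, CIL1 (-0.16 ± 0.064) and CIL2 (-0.05 ± 0.048) did not pass. CIL1 passed as lower under quantile scaling, upper-quartile scaling and limma-voom. The genes that rose encode cryptochrome-interacting factors, CIB1 at 0.32 ± 0.055, CIB4 at 0.35 ± 0.074 and CIB5 at 0.29 ± 0.109, while CIB2 of that family fell (-0.56 ± 0.117) and CIB3 did not pass (0.12 ± 0.091). The CIB5 call (limma adjusted p = 0.0481) was lost under 6 alternatives, among them leaving out CNT1 replicate 1 (adjusted p = 0.0754), CNT1 replicate 2 (0.264) or CNT1-G283E replicate 1 (0.175).

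The PIF-class partners of PAR1 and PRE6 moved both ways, with 4 of 7 lower and 2 higher (85.7% called, against 60.0% of all; median -0.25). PIF4, the elongation factor that PAR1 binds, was read at 51.7 and 50.9 RPKM in CNT1 and at 51.9 and 50.7 RPKM in CNT1-G283E, and the 95% interval of its log2 difference ran from -0.10 to 0.10. HFR1, the non-DNA-binding partner of PRE6 and inhibitor of PIF4, was 1.97-fold lower, at 54.2 and 51.5 RPKM in CNT1 and 107 and 101 RPKM in CNT1-G283E. PIF1 was at -0.77 ± 0.083 (log2, SE), and PIF7 at -1.06 ± 0.170 from 0.876 and 1.70 RPKM in CNT1 and 3.72 and 3.67 RPKM in CNT1-G283E. PIF3 rose by 0.66 ± 0.050 and PIF5 by 0.18 ± 0.044, the PIF5 call being lost without CNT1 replicate 1 (adjusted p = 0.0913). PIL1 was at -0.25 ± 0.069, a call lost without CNT1 replicate 2 (adjusted p = 0.118) or without CNT1-G283E replicate 2 (0.0550).

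Of 8 factors known to act upstream of PRE or IBH1 genes or on their regulators, 3 fell and none rose (37.5% called, against 60.0% of all; median -0.10). GAI, a DELLA repressor of gibberellin responses, was read at 35.8 and 36.6 RPKM in CNT1 and at 59.0 and 54.2 RPKM in CNT1-G283E. RGA, the other DELLA gene listed, did not pass, at -0.13 ± 0.054 (log2, SE; limma adjusted p = 0.0759). It passed as lower under limma-voom (adjusted p = 0.0368), and its difference was -0.20 without CNT1-G283E replicate 2. ARF5, the auxin response factor also called MONOPTEROS that activates PRE3, was at -0.40 ± 0.074 (log2, SE), beside the PRE3 value of 0.08. BIN2, the kinase that restrains the brassinosteroid factors, was at -0.38 ± 0.037. BZR1 and BES1, the brassinosteroid factors themselves, did not pass, with 95% intervals of the log2 difference from -0.18 to 0.04 and from -0.10 to 0.09.

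Of 4 genes known as targets of PAR1 or HBI1, 3 fell and 1 rose, where 60.0% of all genes tested were called (median -1.14). SAUR15 and SAUR68, auxin-responsive genes that PAR1 represses, were lower in CNT1, as PAR1 was. A link between these differences was not tested. SAUR15 was read at 7.49 and 6.35 RPKM in CNT1 and at 17.0 and 14.4 RPKM in CNT1-G283E, and SAUR68 at 9.11 and 9.65 RPKM in CNT1 and 22.6 and 23.3 RPKM in CNT1-G283E. EXPA8, an expansin gene that HBI1 activates, was 2.47-fold lower in CNT1. EXPA1, another, was 1.28-fold higher, at 99.0 and 104 RPKM in CNT1 and 83.8 and 75.4 RPKM in CNT1-G283E.

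**Figure D4:**
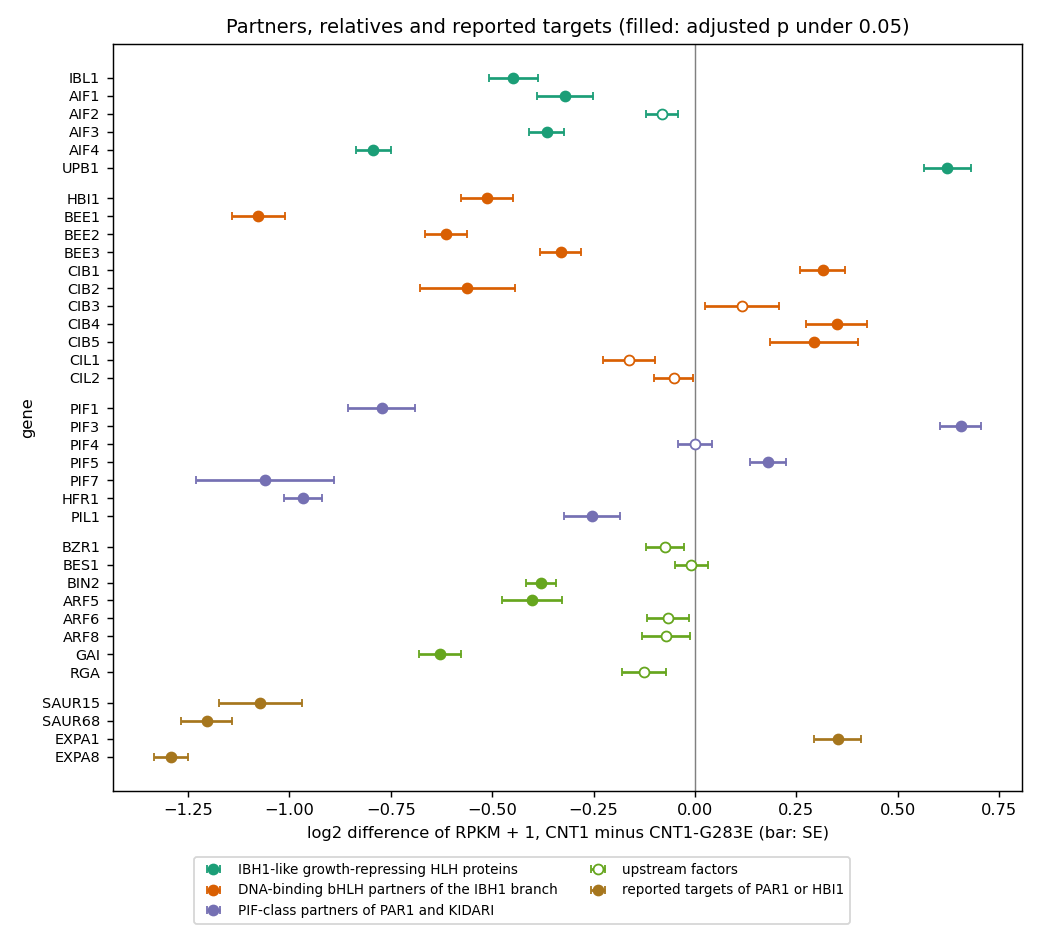
Log2 difference on log2(RPKM + 1), CNT1 minus CNT1-G283E, with its SE, for relatives, partners, upstream factors and targets of the HLH regulators, grouped by list. Filled points had an adjusted p under 0.05, and most IBH1 relatives and the BEE genes lie left of 0 while CIB1, CIB4, PIF3, UPB1 and EXPA1 lie right of it.

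The genes whose values over the 4 libraries were most like those of PRE1, by Euclidean distance of centred log2(RPKM + 1), were AT5G03090 (distance 0.0411), AT3G02670 (0.176) and XTH17, a wall xyloglucan enzyme gene (0.202). Nearest to IBH1 were SCPL13 (0.0160), TIP2;3 (0.0478) and BGAL7 (0.0511), of which TIP2;3 is also a root marker above. Nearest to PAR1 were WRKY57 (0.0179), AT1G16810 (0.0186) and GSR 1 (0.0212). With 4 libraries in 2 groups, most of this likeness is a shared size of the group difference.

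**Figure D5:**
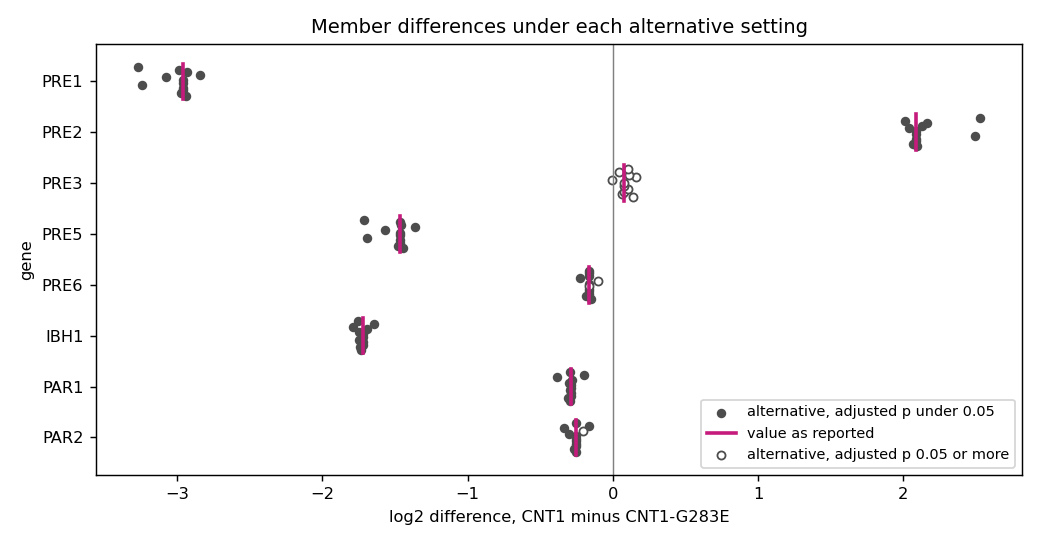
Log2 difference of each tested member as reported (magenta line) and under the alternative settings (points, open where the adjusted p was 0.05 or more). PRE1, PRE2, PRE5 and IBH1 keep filled points throughout, and open points occur for PRE3, PRE6 and PAR2.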

How the data were processed

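Poly(A) RNA was taken from seedlings with oligo(dT) beads for Illumina libraries, per the labels' protocols. Bowtie2 2.2.2 and TAIR10 appear in the submitters' processing notes. The assignment of reads to genes and its use of strand were not given in the sources used here. Each of the 4 tables that the authors deposited holds RPKM, not counts.

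Values were tested as log2(RPKM + 1) with limma 3.58.1 in R 4.3.3 (group as the only term, intensity trend, filter of 1 RPKM in 2 libraries, Benjamini-Hochberg over all 19201 genes tested, two-sided). Fold ratios are ratios of group mean RPKM. Depths were recovered from the values of low genes, and at those depths all 24360 rows above 0 were whole reads within 0.001. Row lengths were taken from the annotation for 29.1% of these rows and fitted, as the shortest that gave whole reads, for the rest; fitted read numbers are exact up to a whole-number factor. Replicates differed by more than sampling noise (chi-square per degree of freedom 1.68 in CNT1 and 4.34 in CNT1-G283E). The limma code was checked on simulated data in which far fewer genes changed than were called here. That check does not measure the error rate in these data. Sequences and coordinates come from the RefSeq TAIR10.1 genome and annotation. Coding sequences were translated and aligned pairwise with BLOSUM62 in biopython 1.88.

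Members and lists were chosen with earlier results of these data known. Named genes are all members, in each list every called gene or, above 6, the 3 with the lowest adjusted p per direction, the 3 genes most like PRE1, IBH1 and PAR1, and the 2 most abundant genes of each marker list; further genes named were chosen after their values were seen.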

Additional observations from a re-analysis of the deposited data

How the results depend on the processing

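The 12 alternatives were scaling by quantiles or by the upper quartile, testing every gene above 0, raising the filter to a mean of 5 RPKM, a pseudocount of 0.1, dropping the intensity trend, limma-voom on recovered reads, a replicate block, and leaving out each library in turn. PRE1, PRE2, PRE5, IBH1 and PAR1 kept their direction and passed in all of them. Their log2 differences ranged from -3.27 to -2.84 for PRE1, 2.01 to 2.53 for PRE2, -1.71 to -1.36 for PRE5, -1.79 to -1.65 for IBH1 and -0.38 to -0.20 for PAR1. PRE6 did not pass without the trend (-0.16, adjusted p = 0.0830) or without CNT1 replicate 1 (-0.10), nor PAR2 without CNT1 replicate 2 (-0.20). With a library left out, PRE3 ranged from -0.0029 to 0.16, below 0 without CNT1 replicate 1. The number of root markers called ranged from 5 to 8 with a library left out, 8 without CNT1-G283E replicate 1. The root marker PRP3 changed direction between these settings. Its log2 difference was -0.40 without CNT1-G283E replicate 1 and 0.21 without CNT1-G283E replicate 2, libraries that held it at 16.4 and 25.6 RPKM. The cause was not tested. With a library left out, the lone sample of its group is assumed to vary like the others.

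The replicate numbers share no stated batch, and deviations of same-numbered libraries had a correlation of -0.02 over genes. With the replicate block, 1 member rose and 6 fell, as without it, and 11214 genes were called in place of 11530. Leaving out a library gave 8910 to 10838. The scalings left the median difference of all genes between 0.01 and 0.02.

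Depth limits PRE4, at 0 or 1 read per library, and PRE3, at 32 to 45.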

Other observations

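The nearest gene with a deposited value on each side of the 9 members was examined for its own difference. Of these 18 neighbours, 312 to 13217 bases away in TAIR10.1, 16 were tested, of which 2 were higher and 5 lower in CNT1, where 31.1% of all genes tested were higher and 29.0% lower. Genes beside PRE2, the member that rose, did not pass: HB-3 had a log2 difference of -0.11 (limma adjusted p = 0.288) and TDP1 of 0.09 (0.384). Beside IBH1, ATPMEPCRD (AT2G43050), 4563 bases away, averaged 63.7 RPKM in CNT1, against 305 RPKM in CNT1-G283E, a log2 difference of -2.24, while SPPL3 on the other side, 312 bases away, was at -0.0019 (adjusted p = 0.977). ABCB19, 13217 bases from PRE5 and known as an auxin transporter, averaged 63.0 RPKM in CNT1, against 104 RPKM in CNT1-G283E. These neighbours were named after their values were seen.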
